A study of Mus musculus with 5 samples.

Results

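The 4 chemokine genes and 2 receptor genes described here were followed across the leucocytes of mouse tumours, namely the ligands Cxcl9, Cxcl10, Cxcl16 and Ccl5 and the receptors Cxcr3 and Cxcr6, which are 6 of the 32285 genes listed in each library. They were taken by gene symbol, and all 6 were present in all 5 libraries. Chemokines are small secreted proteins whose gradients guide leucocytes that carry the matching receptor. CXCL9 and CXCL10 are induced by interferon gamma and share the receptor CXCR3, which is carried by activated CD8 T cells, type 1 helper T cells and NK cells. CXCL16, made as a membrane-bound protein that can be shed, is the ligand of CXCR6, a receptor of tissue-resident and effector T cells. CCL5 attracts T cells and monocytes and is made by dendritic cells as well as by cytotoxic T cells and NK cells.

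The libraries came from Lewis lung carcinoma (LLC) cells, a mouse lung cancer line, that had received either a scrambled guide RNA (3 libraries, called Scramble) or a guide RNA directed at Jag2, which encodes a ligand of Notch receptors (2 libraries, called JAG2KO), and were grown in the flanks of mice until endpoint. The guides were given to the tumour cells, and the labels name no edit of the host. The strain, age and treatment of the mice, the number of mice behind a library, the day of collection and the number of edited clones are not given in the sources used here, so p-values measure the spread between these libraries, which may be technical. Tumours were dissociated with Liberase, cells positive for CD45 and negative for propidium iodide were sorted, and single-cell RNA sequencing counted unique molecular identifiers (UMIs).

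The Scramble libraries held 84788907 to 103246847 UMIs and the JAG2KO libraries 111680641 and 88782432. JAG2KO 2 stood apart, with 17791 kept cells at a median of 2084 UMIs, against 7563 to 9502 kept cells at medians of 7555 to 8443 in the other libraries. Libraries shared 14 to 45 kept barcodes per pair. Ptprc, which encodes CD45, stood at 466 to 570 UMIs per 1000000 (CPM) in all libraries. The labels name the cell type as lung, but the alveolar marker Sftpc had 0 UMIs in every library (a count of 0 allows up to 3) and the club cell marker Scgb1a1 had 3 to 5. Jag2 gave 0, 2 and 0 UMIs in the 18 to 26 tumour-gated cells of the Scramble libraries and 1 and 0 in the 65 and 29 of the JAG2KO libraries, which is too few to check the labels, and a 3' count need not fall in an edited gene.

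Cells were sorted into 18 classes by gates on marker genes, none of which is a member, and each class is written below by the name of its gate. Macrophages were the most numerous class, with 6175, 6986 and 4932 cells in Scramble 1, 2 and 3 and 6167 and 14144 in JAG2KO 1 and 2. T cells of all kinds made up 1.32%, 1.04% and 1.10% of kept cells in Scramble 1, 2 and 3, against 5.52% and 2.73% in JAG2KO 1 and 2. CD8 T cells numbered 4, 4 and 5 in Scramble, against 154 and 158 in JAG2KO, so that no level of CD8 T cells could be set for Scramble. The dendritic cell gates were cDC1 (conventional type 1, which cross-present antigen to CD8 T cells; 55 to 98 cells per library), cDC2 (conventional type 2; 104 to 223) and mDC (mature, Ccr7-expressing migratory dendritic cells; 54 to 180).

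Cxcl9 and Cxcl10 are neighbours on the minus strand of chromosome 5 in GRCm38, Cxcl9 at chr5:92321347-92328079 (ENSMUSG00000029417) and Cxcl10 at chr5:92346638-92348889 (ENSMUSG00000034855). Their levels across classes differed in these libraries. The 250 bases before their start sites are shown here (RefSeq, GRCm38.p6, minus strand, 5' to 3'). Whether these sequences bear on the levels was not tested. Capitals mark the motif matches of a search on both strands for the interferon-stimulated response element (GAAA, any 2 bases, GAAA), the gamma-activated site (TTC, any 3 bases, GAA) and the kappa B site (GGG, any 3 bases, TTCC), with no overlap between matches.

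Cxcl9, chr5:92328080-92328329: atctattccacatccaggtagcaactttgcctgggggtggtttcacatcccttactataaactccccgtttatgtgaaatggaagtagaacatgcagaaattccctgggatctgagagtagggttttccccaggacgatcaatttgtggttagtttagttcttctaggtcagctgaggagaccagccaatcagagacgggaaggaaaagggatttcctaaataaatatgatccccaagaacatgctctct

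Cxcl10, chr5:92348890-92349139: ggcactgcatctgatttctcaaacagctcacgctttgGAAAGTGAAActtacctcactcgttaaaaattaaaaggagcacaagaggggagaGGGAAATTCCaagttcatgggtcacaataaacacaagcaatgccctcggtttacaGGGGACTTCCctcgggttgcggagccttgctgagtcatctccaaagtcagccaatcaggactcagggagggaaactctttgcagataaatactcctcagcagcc

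The Cxcl10 window held 1 response element at positions -213 to -204 from the start site and kappa B matches at -159 to -150 and at -104 to -95. The response element occurs in 2.98% of 32851 mouse promoter windows of this length, the gamma-activated site in 7.02% and the kappa B site in 4.65%. No match to any of them was in the windows of Cxcl9, Cxcr3 or Cxcr6. Promoters of 4 of the 6 members were in the table used, and Cxcl16 (chr11:70453983-70459984) and Ccl5 (chr11:83525778-83530518), both on the minus strand of chromosome 11, are named only. A match is a run of letters and not a measured binding site. A window without a match may still hold sites of other letters or spacing, which were not searched.

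Cxcl9 was highest per UMI in dendritic cells, but most of its UMIs lay in macrophages. In cDC1 its level was 572, 370 and 262 CPM in Scramble 1, 2 and 3 and 808 and 443 CPM in JAG2KO 1 and 2. In macrophages it was 29.0, 146 and 67.2 CPM in Scramble, against 263 and 284 CPM in JAG2KO. All 5 libraries had more Cxcl9 per UMI in cDC1 than in macrophages, by 1.56 to 19.8 times, and the groups did not overlap in macrophages while they did in cDC1. The mDC had 377, 332 and 232 CPM in Scramble, against 555 and 138 CPM in JAG2KO, and lay above macrophages in 4 of 5 libraries but below them in JAG2KO 2. In cDC2 the values were 159, 84.9 and 103 CPM in Scramble, against 207 and 285 CPM in JAG2KO. Endothelial cells reached 20 cells in JAG2KO 2 alone, with 116 Cxcl9 UMIs in 29 cells (625 CPM). Order by median level was cDC1, mDC, cDC2, macrophages and monocytes. The step from cDC1 to mDC held in 5 of 5 libraries, which gives the smallest p that 5 libraries allow in the two-sided exact sign-flip test (adjusted p = 0.269 over 43 pairs of neighbouring classes of all members). The steps from mDC to cDC2 (4 of 5 libraries) and from cDC2 to macrophages (3 of 5) did not differ beyond the spread.

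**Figure D1:**
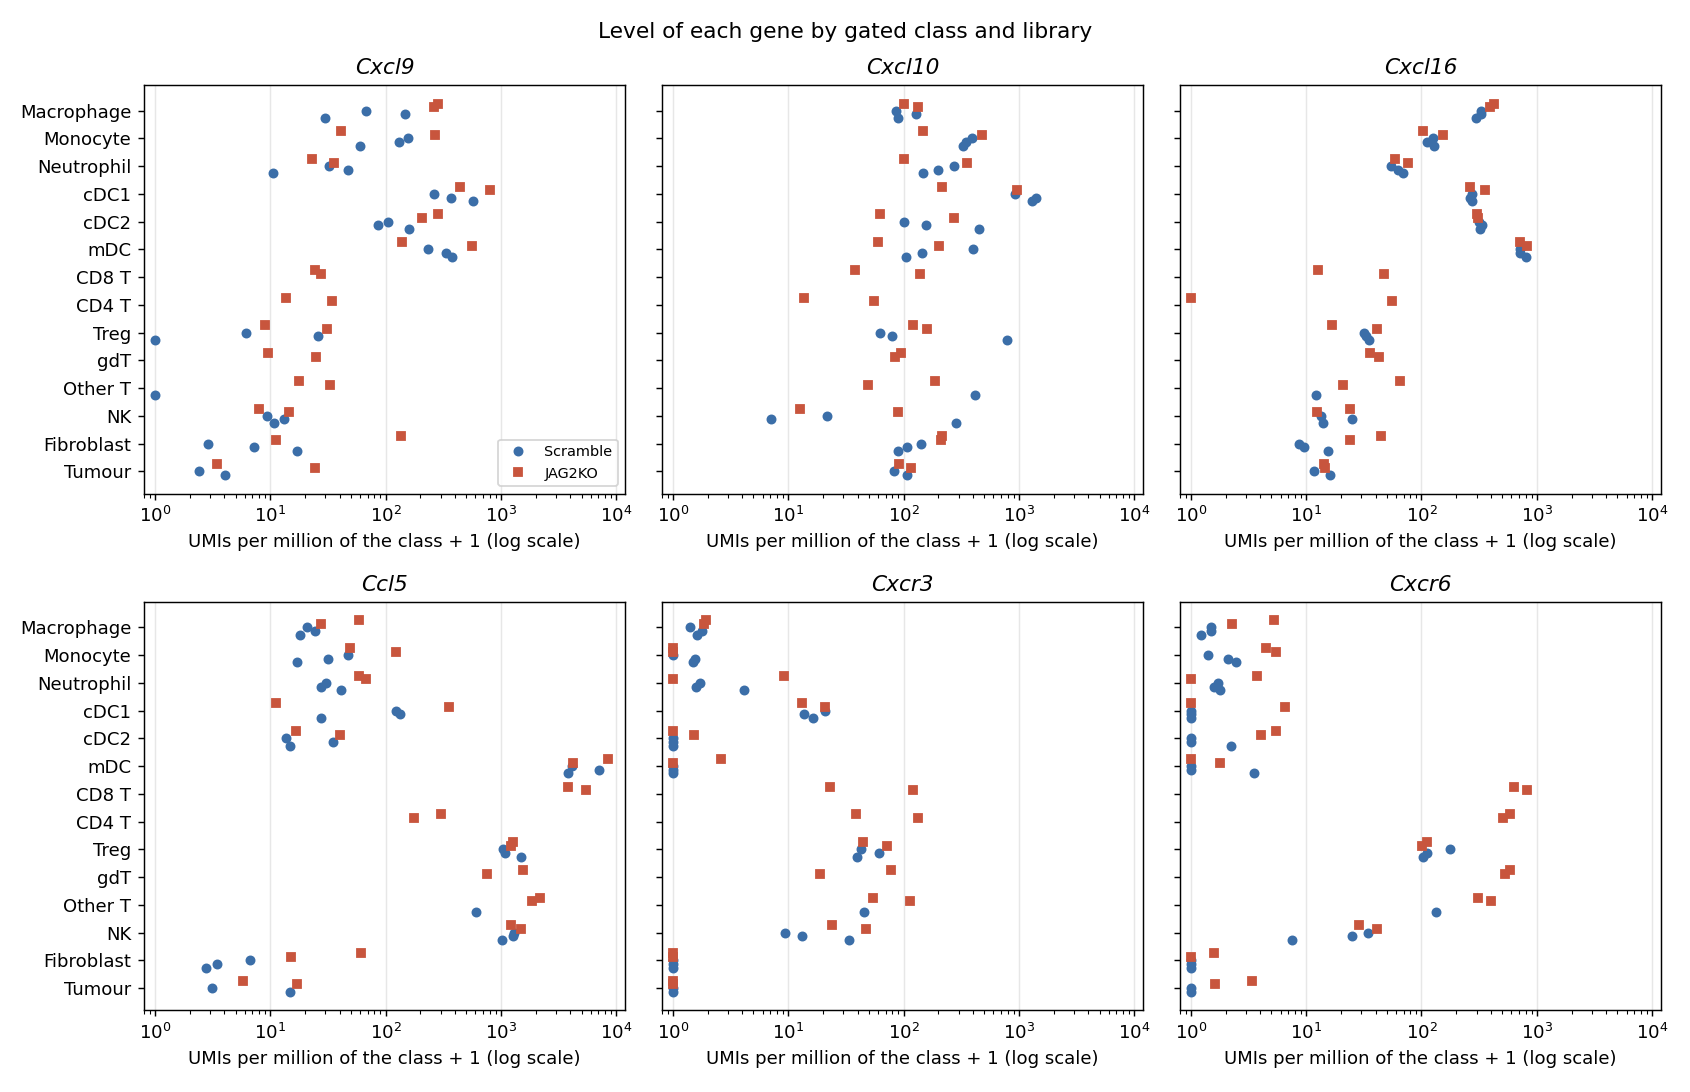
Level of each gene (x axis, CPM of the class plus 1, log scale) in gated classes with at least 20 cells in a library, 1 point a library, Scramble as blue circles and JAG2KO as red squares. Endothelial cells, plasmacytoid dendritic cells, mast cells and B cells are not drawn. Among the classes drawn, Cxcl9 and Cxcl16 sit highest in myeloid classes, Ccl5 in mDC and CD8 T cells, and both receptors in T cells. The CD4 T, CD8 T and gdT points are from JAG2KO alone.

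Macrophages held 65.7%, 90.1% and 72.8% of the Cxcl9 UMIs of the Scramble libraries, against 79.0% and 88.4% of those of the JAG2KO libraries. The cDC1 held 12.9%, 2.58% and 5.16% in Scramble, against 3.39% and 1.23% in JAG2KO. Few cells carried the gene strongly. The top 1% of macrophages held 86.7%, 62.4% and 74.4% of the class's Cxcl9 UMIs in Scramble, against 42.5% and 49.7% in JAG2KO. To reach 50% of these UMIs took 14, 46 and 19 macrophages in Scramble and 81 and 143 in JAG2KO. The dendritic levels rest on fewer cells still, with 50% of the cDC1 UMIs in 1 to 5 cells of a library.

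Cxcl9 in macrophages was compared at equal depth by thinning each cell to 1000 UMIs, which left out cells with fewer. At least 1 Cxcl9 UMI was then found in 1.27%, 4.77% and 2.34% of Scramble macrophages and in 7.98% and 13.7% of JAG2KO macrophages. Before thinning, Scramble gave 3.60%, 13.6% and 7.48% and JAG2KO 18.9% and 20.7%. Neutrophils, used as a background class, gave 0.46%, 4.20% and 1.92% in Scramble, against 2.86% and 1.76% in JAG2KO after thinning. By this share, macrophages of Scramble 2 and 3 lay close to the background. Their levels were 146 and 67.2 CPM, against 46.0 and 31.5 CPM in neutrophils. Neutrophils of these libraries with a UMI held 1.10 and 1.75 Cxcl9 UMIs each after thinning. The thinned macrophage shares did not overlap between groups, and the exact two-sided permutation test gave p = 0.1, the smallest that 3 against 2 libraries allow (adjusted p = 0.467 over 84 share comparisons). Cells with a UMI held 2.86, 3.25 and 3.19 Cxcl9 UMIs each in Scramble, against 3.35 and 1.84 in JAG2KO, which overlap.

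**Figure D2:**
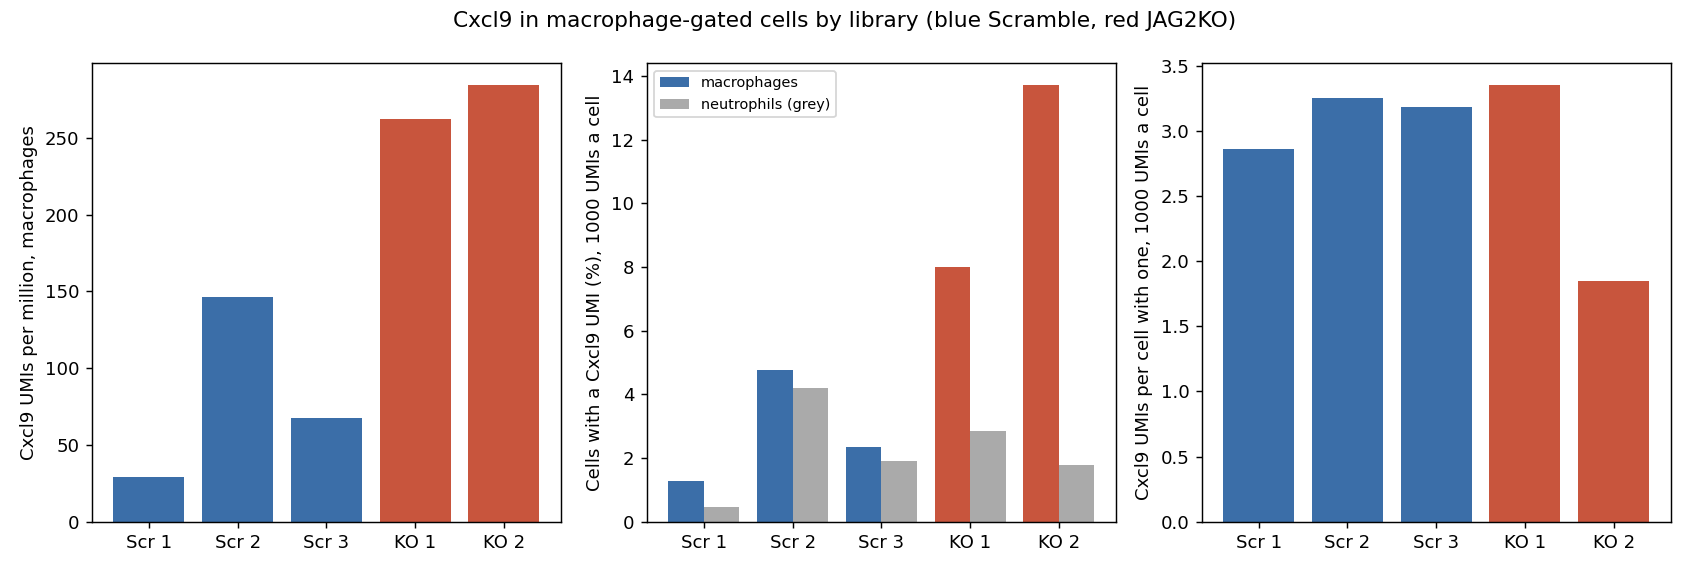
Cxcl9 in macrophages by library (Scr, Scramble, blue; KO, JAG2KO, red): level in CPM, share of cells with a UMI after thinning to 1000 UMIs with neutrophils in grey, and UMIs per cell that had one. Level and share are highest in both JAG2KO libraries (263 and 284 CPM; 7.98% and 13.7%), and UMIs per cell with one are not.

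Cxcl10 was highest in cDC1, followed by monocytes and neutrophils. In cDC1 the level was 1293, 1401 and 930 CPM in Scramble, against 959 and 216 CPM in JAG2KO, and the groups overlapped. Monocytes had 325, 347 and 394 CPM in Scramble, against 479 and 146 CPM in JAG2KO. Neutrophils had 147, 198 and 270 CPM in Scramble, against 351 and 99.3 CPM in JAG2KO. The cDC1 were above monocytes in 5 of 5 libraries, by 1.48 to 4.04 times, and monocytes above neutrophils in 5 of 5, by 1.36 to 2.21 times (each at the smallest exact sign-flip p, adjusted p = 0.269). Macrophages had only 88.7, 128 and 85.8 CPM in Scramble, against 131 and 100 CPM in JAG2KO, but held 57.2% to 77.2% of all Cxcl10 UMIs. A single cell weighed heavily in some values: in Scramble 1, 1 T cell held 118 of the 236 UMIs of T cells, and in JAG2KO 2, 1 cDC1 held 91 of the 106 UMIs of cDC1.

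Cxcl10 was detected more often in Cxcl9-positive than in Cxcl9-negative macrophages of every library. After thinning, Cxcl10 was detected in 15.6%, 17.7% and 15.9% of Cxcl9-positive macrophages in Scramble, against 15.6% and 10.7% in JAG2KO. In Cxcl9-negative macrophages it was detected in 3.63%, 4.35% and 3.43% in Scramble, against 3.24% and 5.54% in JAG2KO. Across the 18 classes, pooled over libraries, the levels of both genes were related weakly (Pearson r = 0.28, a description over classes that share libraries).

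Cxcl16 was spread over most macrophages. Its highest level was in mDC, at 803, 713 and 713 CPM in Scramble, against 826 and 715 CPM in JAG2KO. Macrophages had 295, 326 and 328 CPM in Scramble, against 389 and 424 CPM in JAG2KO, which do not overlap. The mDC were above macrophages in 5 of 5 libraries by 1.69 to 2.72 times (the smallest exact sign-flip p, adjusted p = 0.269). Macrophages, cDC2 (304 to 335 CPM) and cDC1 (261 to 355 CPM) were close to each other, and macrophages and cDC2 did not differ beyond the spread (higher in 3 of 5 libraries). Monocytes had 101 to 154 CPM and neutrophils 53.0 to 75.5 CPM. Macrophages held 84.1% to 92.2% of all Cxcl16 UMIs, and 50% of the UMIs lay in 11.7% to 19.96% of macrophages. A Cxcl16 UMI was found in 26.0% ± 2.06 (SD, n = 3) of thinned Scramble macrophages and 30.7% ± 1.47 (SD, n = 2) of thinned JAG2KO macrophages (exact permutation p = 0.1, the smallest possible), against 80.0% ± 2.14 and 71.1% ± 19.0 before thinning.

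Ccl5 was highest in mature dendritic cells and CD8 T cells, with lower levels in NK cells and regulatory T cells. In mDC its level was 3832, 7066 and 4138 CPM in Scramble, against 4169 and 8450 CPM in JAG2KO, with groups that overlap. CD8 T cells of JAG2KO had 5405 and 3818 CPM. NK cells had 1019, 1259 and 1295 CPM in Scramble, against 1492 and 1220 CPM in JAG2KO, and regulatory T cells (Treg) 1478, 1093 and 1038 CPM in Scramble, against 1221 and 1260 CPM in JAG2KO. The mDC were above NK cells by 2.79 to 6.93 times and above Treg by 2.59 to 6.70 times in 5 of 5 libraries each, whereas NK cells and Treg did not differ beyond the spread (3 of 5). A Ccl5 UMI was present in 60.3% to 73.9% of mDC and in 88.3% and 81.0% of JAG2KO CD8 T cells, against 3.8% to 6.9% of neutrophils.

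Much of the Ccl5 lay in small classes. The mDC, at 54 to 180 cells per library, held 34.8%, 42.3% and 46.8% of the Ccl5 UMIs of the Scramble libraries and 39.9% and 35.9% of those of JAG2KO. CD8 T cells held 1.36%, 0.44% and 0.20% in Scramble, against 19.9% and 18.1% in JAG2KO. Macrophages of Scramble held 25.8%, 32.3% and 23.6%, and those of JAG2KO 12.9% and 22.1%. The CD8 T cell and macrophage shares did not overlap between groups, at an exact permutation p of 0.1 each, the smallest possible (adjusted p = 0.36 over 126 shares). Such a share depends on the number of cells, the level in them and the UMIs of all other classes. In macrophages the Ccl5 level was 17.2, 23.4 and 19.9 CPM in Scramble, against 26.6 and 57.9 CPM in JAG2KO. The cell numbers of both classes are given above. The part of each in these shares was not tested.

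**Figure D3:**
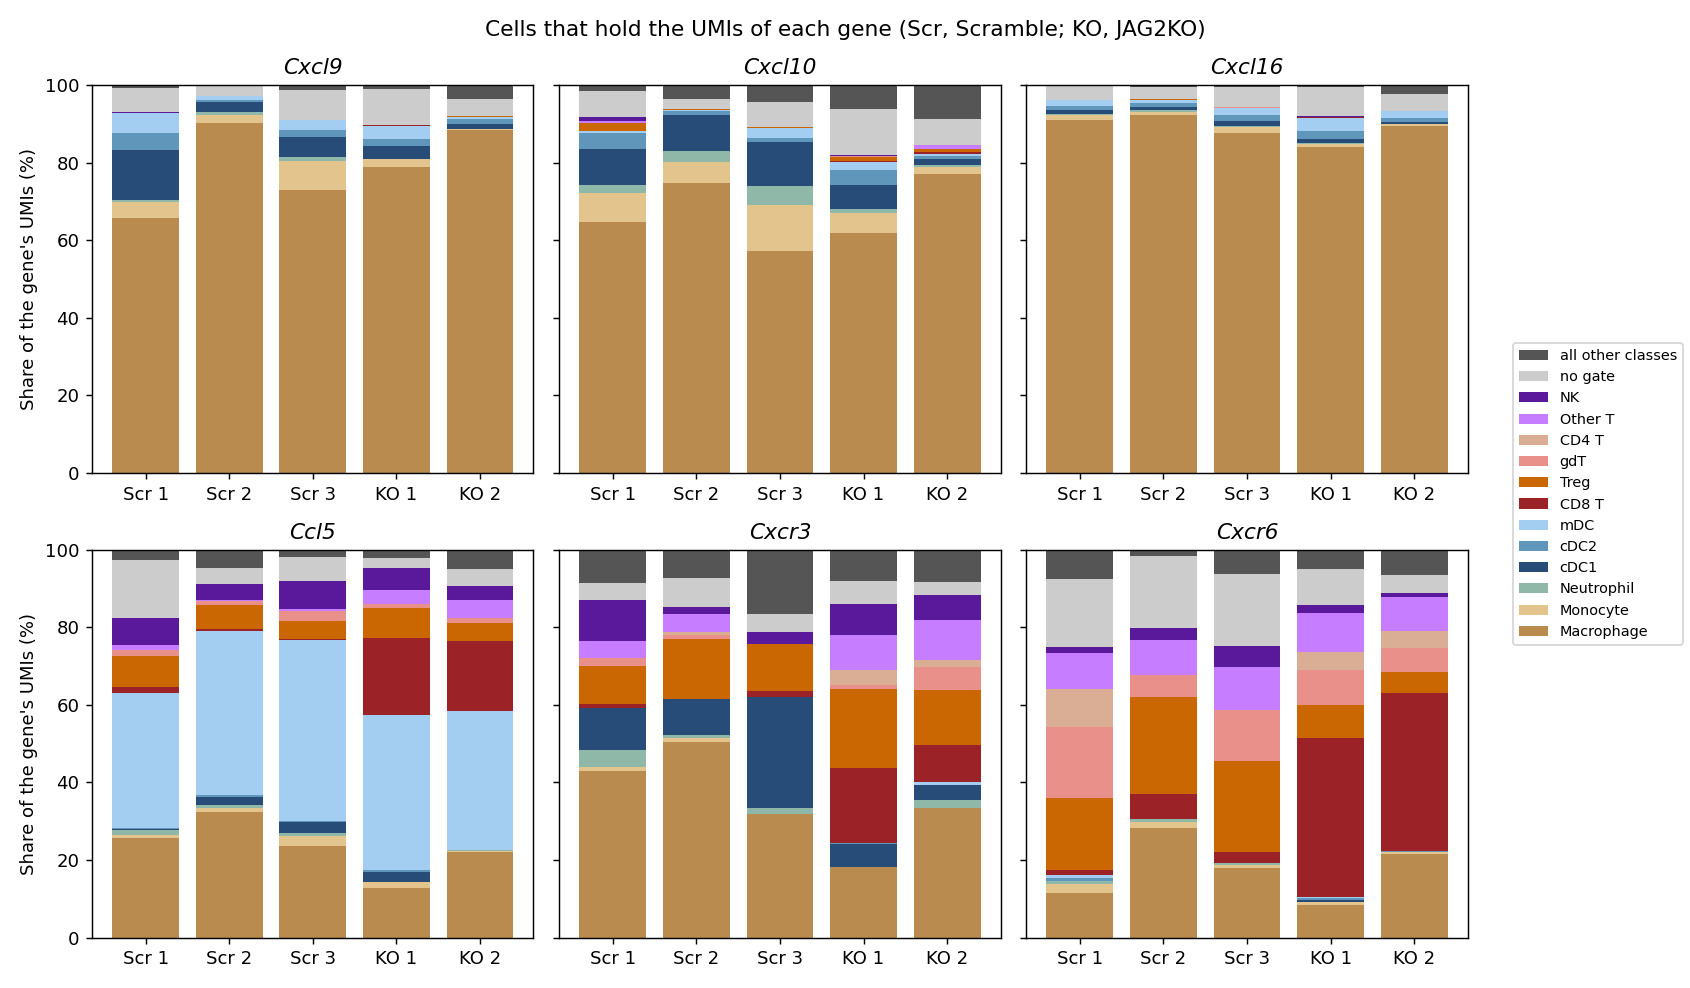
Share of each gene's UMIs (y axis, %) held by each class in each library (Scr, Scramble; KO, JAG2KO). Macrophages hold most of Cxcl9, Cxcl10 and Cxcl16 in every library, and the CD8 T cell share of Ccl5 and Cxcr6 is 18.1% or more in both JAG2KO libraries and 6.45% or less in the Scramble libraries.

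Cxcr3, the receptor of CXCL9 and CXCL10, was low, and of the classes with enough cells T cells, NK cells, cDC1 and plasmacytoid dendritic cells (pDC) held most of it per UMI. It lies at chrX:101731535-101734269 on the minus strand. In Treg its level was 38.1, 60.3 and 41.3 CPM in Scramble, against 71.4 and 43.5 CPM in JAG2KO. CD8 T cells of JAG2KO had 119 and 22.1 CPM, and CD4 T cells 132 and 37.8 CPM. The pDC reached 20 cells in JAG2KO 1 alone, with 7 Cxcr3 UMIs in 21 cells (59.9 CPM), and the 10 to 18 pDC of the Scramble libraries held 4, 4 and 5 UMIs, and the 11 of JAG2KO 2 held 1. NK cells ranged from 8.36 to 46.1 CPM and cDC1 from 12.2 to 19.9 CPM. Treg were above NK cells in 5 of 5 libraries and cDC1 above macrophages in 5 of 5, by 12.9 to 49.7 times. Macrophages had 0.399 to 0.951 CPM, but by number held 18.3% to 50.5% of all Cxcr3 UMIs. A Cxcr3 UMI was found in 7.59% to 14.7% of cDC1 and 10.3% to 22.3% of Treg, against 0.36% to 0.86% of macrophages.

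Cxcr6, the receptor of CXCL16, was much more abundant in CD8, gamma-delta and CD4 T cells of JAG2KO than in Treg. It lies at chr9:123806475-123811760 on the plus strand. In JAG2KO 1 and 2 its level was 826 and 637 CPM in CD8 T cells, 526 and 586 CPM in gamma-delta T cells and 505 and 579 CPM in CD4 T cells. Treg had 102, 110 and 176 CPM in Scramble, against 99.1 and 111 CPM in JAG2KO. Outside the Treg gate, only T cells placed in no subset reached 20 cells in Scramble, in Scramble 1 alone, at 134 CPM. NK cells had 6.55, 24.1 and 33.4 CPM in Scramble, against 40.3 and 27.8 CPM in JAG2KO. Treg were above NK cells in 5 of 5 libraries, by 2.46 to 15.5 times. A Cxcr6 UMI was present in 79.9% and 75.3% of JAG2KO CD8 T cells and in 14.7% to 27.1% of Treg. The same share was 0.194%, 0.444% and 0.365% of macrophages in Scramble, against 1.23% and 1.52% in JAG2KO.

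The macrophage values of Cxcr6 moved with T cell transcripts. The summed T cell markers (Cd3d, Cd3e, Cd3g, Trac, Trbc1 and Trbc2) in macrophages were 3.32 to 7.17 CPM in Scramble, against 11.7 and 38.0 CPM in JAG2KO, beside a Cxcr6 level of 0.231 to 0.503 CPM in Scramble, against 1.29 and 4.23 CPM in JAG2KO. In neutrophils the same markers were at 16.5 to 36.4 CPM in Scramble, against 58.1 and 66.2 CPM in JAG2KO. Their part in the Cxcr6 and Ccl5 levels of the myeloid classes was not tested.

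Cells with a receptor UMI were counted over all kept cells. Cxcr6-positive cells numbered 63, 76 and 75 in Scramble, against 415 and 536 in JAG2KO, or 0.721%, 0.80% and 0.992% and 4.39% and 3.01% of kept cells. CD8 T cells were 1, 3 and 2 of them in Scramble, against 123 and 119 in JAG2KO. Macrophages were 12, 31 and 18 of them in Scramble, against 76 and 215 in JAG2KO. The groups did not overlap (0.837% ± 0.139, SD, n = 3, against 3.70% ± 0.975, SD, n = 2; exact permutation p = 0.1, the smallest possible). Cxcr3-positive cells were 0.915%, 1.01% and 0.767% of kept cells in Scramble, against 2.55% and 0.793% in JAG2KO, which overlap (exact permutation p = 0.3). Within JAG2KO CD8 T cells thinned to 1000 UMIs, Ccl5 was found in 82.9% and 70.6% of Cxcr6-positive cells and in 78.5% and 66.3% of the others.

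**Figure D4:**
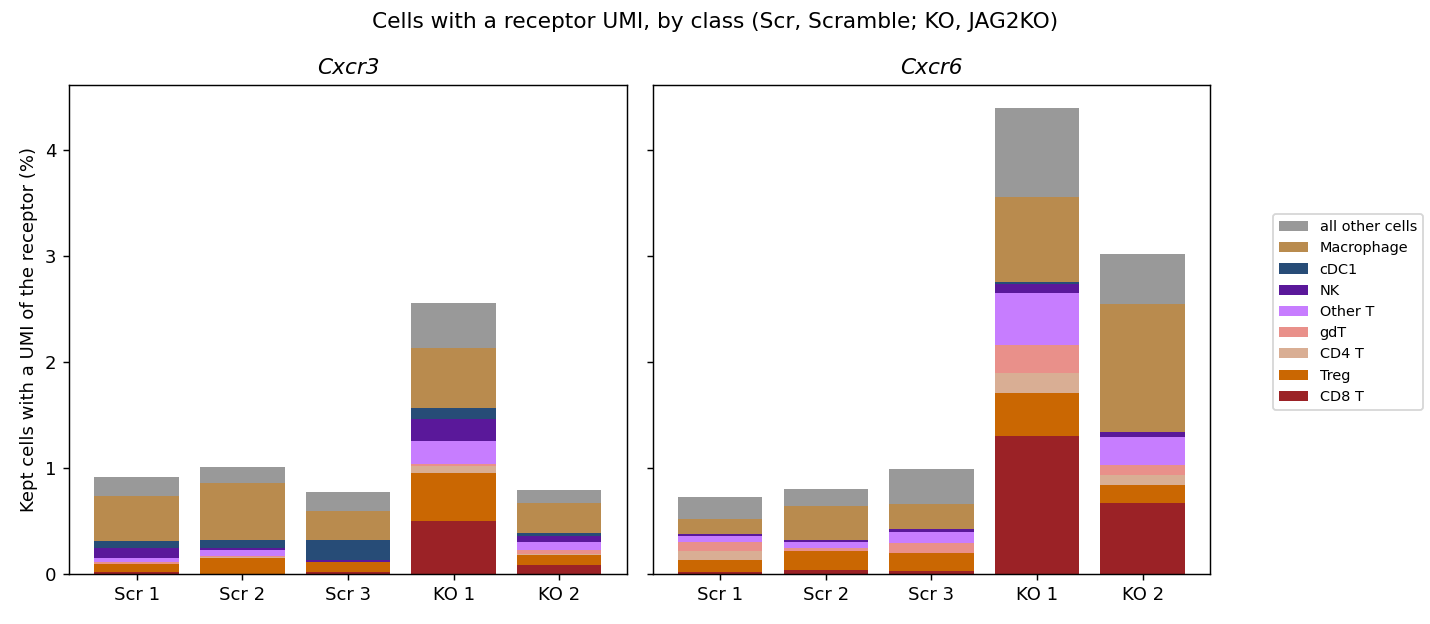
Kept cells with at least 1 UMI of Cxcr3 (left) or Cxcr6 (right) as a percentage of kept cells (y axis), by library (Scr, Scramble; KO, JAG2KO) and class. For Cxcr6 both JAG2KO bars (4.39% and 3.01%) stand above all Scramble bars, with CD8 T cells as a visible block, and for Cxcr3 the JAG2KO 2 bar (0.793%) lies among the Scramble bars. Cells are shown at full depth, which was lowest in JAG2KO 2.

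JAG2KO was compared with Scramble over all kept cells, where the level of a gene combines its level in each class and the number of cells. Cxcr6, Ccl5 and Cxcr3 rose. Cxcr6 was at 1.75 CPM ± 0.323 (SD, n = 3) in Scramble and 13.03 CPM ± 2.97 (SD, n = 2) in JAG2KO, a log2 fold change of 2.86 with a standard error (SE) of 0.21 (edgeR quasi-likelihood test, Benjamini-Hochberg adjusted p = 0.00144). Ccl5 rose from 59.8 CPM ± 4.44 to 176 CPM ± 39.8 (log2 fold change 1.52, SE 0.16, adjusted p = 0.00333, edgeR). Cxcr3 rose from 1.15 CPM ± 0.172 to 2.78 CPM ± 0.822 (log2 fold change 1.23, SE 0.22, adjusted p = 0.0209, edgeR). So 3 of 6 members passed, all upward, where 7.25% of the 15068 genes tested passed in either direction. The groups did not overlap for any of these 3 genes, but the share of all genes that did so is not given here.

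Cxcl9 over all kept cells was at 36.5, 134 and 70.5 CPM in Scramble, against 237 and 250 CPM in JAG2KO, without overlap, and did not pass (log2 fold change 1.56, adjusted p = 0.0876, edgeR); without Scramble 2 it passed (2.14, adjusted p = 0.0255). Cxcl16 (0.27, adjusted p = 0.177) and Cxcl10 (-0.01, adjusted p = 0.979) did not pass either. The Cxcr3 call was lost without Scramble 1, Scramble 2, Scramble 3 or JAG2KO 1 (adjusted p = 0.0701, 0.0687, 0.0528 and 0.0859 by edgeR, log2 fold changes of 1.25, 1.32, 1.12 and 0.93). The Cxcr6 and Ccl5 calls held under all alternatives tried.

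Among T cells of all kinds, Cxcr6 and Ccl5 rose, while the makeup of the T cells differed between groups. Cxcr6 was at 185, 142 and 225 CPM in Scramble, against 389 and 414 CPM in JAG2KO (log2 fold change 1.21, SE 0.22, adjusted p = 0.0116, edgeR). Ccl5 was at 1304, 986 and 1103 CPM in Scramble, against 2318 and 2434 CPM in JAG2KO (log2 fold change 1.14, SE 0.23, adjusted p = 0.0273, edgeR). These 2 calls stand beside 0.384% of 5985 genes called. Cd8a and Cd8b1, summed over the same cells, were at 86.5 to 93.5 CPM in Scramble, against 528 and 579 CPM in JAG2KO. With CD8 T cells left out, a comparison added after seeing the data, neither gene passed (Cxcr6 0.51, adjusted p = 0.958; Ccl5 0.33, adjusted p = 0.999; edgeR). In Treg alone, Cxcr6 (-0.24, adjusted p = 0.999), Ccl5 (0.08) and Cxcr3 (0.36) did not pass, and 0.0407% of genes were called.

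The T cell calls also depended on single libraries. The Cxcr6 call was lost without Scramble 1 (1.25, adjusted p = 0.0526), Scramble 2 (1.01, adjusted p = 0.345) or Scramble 3 (1.34, adjusted p = 0.0829), and the Ccl5 call without Scramble 2 (1.01, adjusted p = 0.748) or Scramble 3 (1.09, adjusted p = 0.396), all by edgeR. Cxcr3 in all T cells was at 39.4, 59.7 and 27.8 CPM in Scramble, against 87.7 and 38.7 CPM in JAG2KO, which overlap. In Treg and in NK cells, where 0.0208% of genes were called, 0 members passed by edgeR or DESeq2 and 0 had an unadjusted p under 0.05. In NK cells the log2 fold changes were 0.23 for Ccl5, 0.80 for Cxcr6 and 0.87 for Cxcr3.

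In cDC2, Cxcl9 rose by 1.10 on the log2 scale (SE 0.21, adjusted p = 0.0117, edgeR), and both JAG2KO libraries were above all Scramble libraries at the levels given above. It was the only member called there, where 0.481% of genes were called. In each library 1 to 3 cells held 50% of the class's Cxcl9 UMIs. The call was lost without Scramble 2 (0.93, adjusted p = 0.181), Scramble 3 (1.02, adjusted p = 0.086) or JAG2KO 2 (0.83, adjusted p = 0.178), with a stricter gate (1.08, adjusted p = 0.0604), and in cDC2 with few macrophage UMIs, a comparison added after seeing the data (1.13, adjusted p = 0.465; edgeR). The macrophage markers in cDC2 were at 1305 to 1735 CPM in Scramble, against 1250 and 1316 CPM in JAG2KO.

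In macrophages no member passed. For 5 of the 6 both JAG2KO libraries lay above all Scramble libraries, but the share of all genes that did so is not given here. The log2 fold changes were 1.74 for Cxcl9 (SE 0.56, adjusted p = 0.206), 0.35 for Cxcl16 (SE 0.10, adjusted p = 0.178), 1.06 for Ccl5 (SE 0.31, adjusted p = 0.175), 2.74 for Cxcr6 (SE 0.57, adjusted p = 0.0865) and 0.57 for Cxcr3 (adjusted p = 0.48), by edgeR. Cxcl10, at 0.18 (adjusted p = 0.731), overlapped. By edgeR, an unadjusted p under 0.05 was reached by 4 of the 6 and by 2257 of the 14151 genes tested in macrophages. Of these 14151 genes, 0.523% were called. DESeq2 called 891 genes in macrophages, against 74 by edgeR. Among the 891 were 3 members, Cxcr6 (2.75, adjusted p = 0.000417), Ccl5 (1.07, adjusted p = 0.0123) and Cxcl16 (0.35, adjusted p = 0.0242). Without JAG2KO 1, Cxcr6 (3.38, adjusted p = 0.0207) and Ccl5 (1.54, adjusted p = 0.0174) passed in macrophages, so these calls rest on the shallow library.

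In monocytes, neutrophils, cDC1 and mDC no member passed, and 0.337%, 0.27%, 0.167% and 0.0546% of genes were called there in that order. DESeq2 called 0 members in these 4 classes, and edgeR gave an unadjusted p under 0.05 for 1, 1, 2 and 0 of them in the same order. Over all genes, 696 of 8611, 631 of 7025, 591 of 7199 and 234 of 5491 had such a p. Ccl5 in monocytes came nearest (log2 fold change 1.501, SE 0.32, adjusted p = 0.0532, edgeR), at 16.2, 30.5 and 46.6 CPM in Scramble, against 123 and 48.3 CPM in JAG2KO. It passed in 7 of 14 alternatives, among them without Scramble 3 (1.94, adjusted p = 0.0289), without JAG2KO 2 (1.93, adjusted p = 0.00413), with no filter on low counts and with stricter depth, mitochondrial or gate settings. DESeq2 did not call it, and without JAG2KO 1 the value fell to 0.62 (adjusted p = 0.801, edgeR). Cxcl10 in cDC1 was lower by point estimate (-1.04, adjusted p = 0.451) and passed without JAG2KO 1 (-2.43, adjusted p = 2.24e-06), where the JAG2KO level is that of JAG2KO 2 alone. The share of cDC1 with a Cxcl10 UMI was 34.2%, 38.0% and 42.1% in Scramble, against 26.5% and 9.09% in JAG2KO, and after thinning 25.3%, 25.0% and 27.4% against 15.3% and 3.64% (exact permutation p = 0.1, the smallest possible; adjusted p = 0.467). Ccl5 in mDC (0.36, adjusted p = 0.998) and Cxcl9 in cDC1 (0.64, adjusted p = 0.588) did not pass.

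Fibroblasts, a class that a CD45 sort should leave out, numbered 40, 50 and 43 cells in Scramble, against 71 and 136 in JAG2KO, and 3 chemokines rose in them. Cxcl10 was at 88.7, 107 and 140 CPM in Scramble, against 209 and 215 CPM in JAG2KO (log2 fold change 1.03, SE 0.18, adjusted p = 0.0201, edgeR). Cxcl16 was at 14.3, 8.65 and 7.63 CPM in Scramble, against 23.0 and 43.8 CPM in JAG2KO (1.85, SE 0.36, adjusted p = 0.0283, edgeR). Ccl5 was at 1.79, 2.46 and 5.72 CPM in Scramble, against 14.03 and 59.8 CPM in JAG2KO (3.48, SE 0.65, adjusted p = 0.0251, edgeR), but 1 cell of JAG2KO 2 held 53 of that library's 101 UMIs. These 3 of 4 ligands stand beside 3.1% of genes called in fibroblasts, and Cxcl9 did not pass (3.39, adjusted p = 0.0903), with 198 of the 229 UMIs of JAG2KO 2 in 1 cell.

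The fibroblast calls moved with other measures. Median depth was 23748 to 37465 UMIs in Scramble fibroblasts and 25115 and 6745 in JAG2KO, and the T cell markers were at 1.79 to 2.54 CPM in Scramble, against 6.18 and 17.8 CPM in JAG2KO, whereas the macrophage markers overlapped (523 to 601 against 484 and 563 CPM). In fibroblasts of at least 10000 UMIs, a comparison added after seeing the data, all 3 genes passed (Cxcl10 0.98, Cxcl16 1.69 and Ccl5 3.20). In fibroblasts with few macrophage UMIs, also added after seeing the data, Cxcl16 did not pass (1.44, adjusted p = 0.0664, edgeR). Cxcl10 did not pass with at most 5% mitochondrial UMIs (0.91, adjusted p = 0.0572) or with cells thinned to 1000 UMIs (1.49, adjusted p = 0.155), by edgeR. The Cxcl10 call was also lost without Scramble 2, JAG2KO 1 or JAG2KO 2 (adjusted p = 0.0849, 0.079 and 0.0977, with log2 fold changes of 0.98, 1.04 and 1.02), the Cxcl16 call without Scramble 2, Scramble 3 or JAG2KO 2 (adjusted p = 0.104, 0.089 and 0.199; 1.74, 1.68 and 1.33) and the Ccl5 call without Scramble 1, Scramble 2 or JAG2KO 2 (adjusted p = 0.0514, 0.0961 and 0.181; 3.26, 3.25 and 2.12), all by edgeR. In tumour-gated cells, fitted on 4 libraries because Scramble 1 held 18, no member passed by edgeR or by DESeq2, none had an unadjusted p under 0.05, and 1.79% of genes were called.

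**Figure D5:**
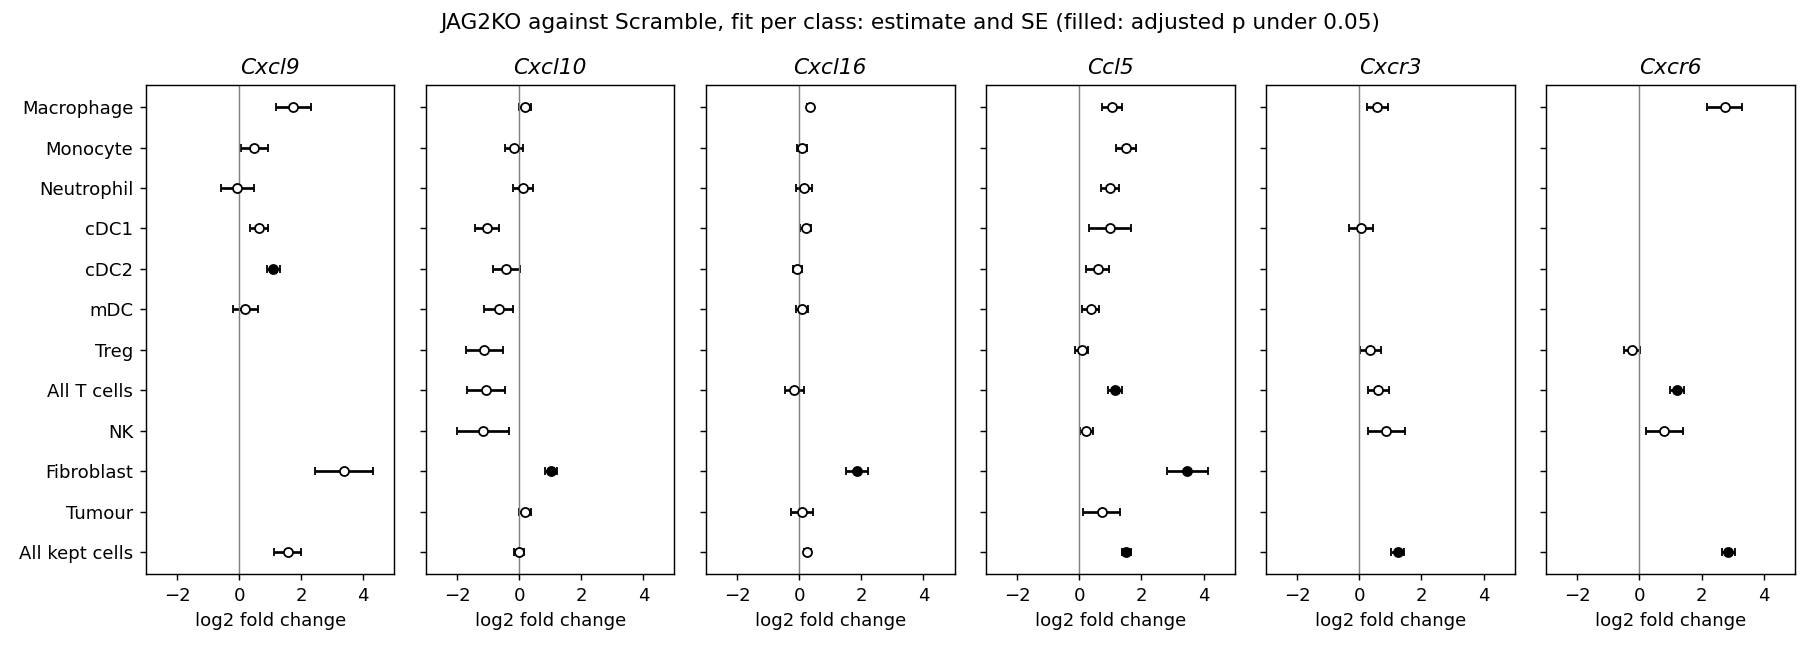
Log2 fold change of each gene, JAG2KO against Scramble (x axis), in each class that could be fitted (y axis), as the edgeR estimate with a bar of 1 standard error on each side. Filled points passed an adjusted p of 0.05: Cxcl9 in cDC2, Cxcl10, Cxcl16 and Ccl5 in fibroblasts, Ccl5 and Cxcr6 in all T cells, and Ccl5, Cxcr3 and Cxcr6 over all kept cells.

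The pathway around these genes was read from a list of 44 partners and regulators, of which 43 were matched in the files. Over all kept cells 7 of 40 tested rose and 3 fell, where 7.25% of all genes were called. The summed T cell markers over these cells were at 23.7 to 30.1 CPM in Scramble, against 110 and 164 CPM in JAG2KO. Their part in the Ifng and Tbx21 values was not tested. Those that rose included Ifng (2.50, adjusted p = 0.0146), which encodes the cytokine that induces Cxcl9 and Cxcl10, its responsive genes Socs1 (0.93, adjusted p = 0.0106) and Irf1 (0.78, adjusted p = 0.037), and Tbx21 (1.75, adjusted p = 0.0152), the type 1 lymphocyte transcription factor that activates Cxcr3. Chemokines that rose were Cxcl12, the ligand of CXCR4 (3.64, adjusted p = 0.00839), the neutrophil attractant Cxcl1 (1.48, adjusted p = 0.0446) and Cx3cl1 (1.27, adjusted p = 0.0176). Among those that fell were the receptors Ccr1 (-0.77, adjusted p = 0.00404) and Cx3cr1 (-0.44, adjusted p = 0.038). The list's median was 0.22, against 0.00 over all genes, and all tests are by edgeR.

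Within classes few partners passed. In macrophages 1 of 40 tested rose, Cxcl1 (1.46, adjusted p = 0.0115, edgeR), with a list median of 0.36 against 0.00 and 0.523% of genes called. In fibroblasts 4 of 31 rose, Cxcl12 (3.12, adjusted p = 0.00638), Ccr2 (1.16, adjusted p = 0.0457), Nfkb1 (0.84, adjusted p = 0.0465) and Socs1 (1.07, adjusted p = 0.0485), by edgeR, beside 3.1% of genes called. In tumour-gated cells 2 of 26 rose, Cxcl1 (1.28, adjusted p = 0.00777) and Cxcl12 (4.84, adjusted p = 0.0097), by edgeR, beside 1.79% of genes called. An unadjusted edgeR p under 0.05 was reached by 21 of the 40 in macrophages, beside 2257 of 14151 genes. It was reached by 17 of the 31 in fibroblasts (1753 of 9814 genes) and 9 of the 26 in tumour-gated cells (1192 of 8681 genes). None of the 27 to 33 tested passed edgeR's test in the other 8 classes, where 1 (cDC1) to 12 (cDC2) had an unadjusted p under 0.05. Over all genes, 591 of 7199 in cDC1 and 619 of 7484 in cDC2 had such a p. Partners among the 3 with the smallest p in each of the 8 classes are given as values. In all T cells they were the chemokine Ccl4 (1.38, adjusted p = 0.0969), Ifng (1.35, adjusted p = 0.305) and Pf4 (-0.98, adjusted p = 0.332), and in Treg Ccl4 (1.20, adjusted p = 0.179), Ccl3 (1.07) and Pf4 (-1.15), by edgeR. In NK cells they were Ccl3 (1.42, adjusted p = 0.978), Ccl4 (1.09) and Cxcr4 (0.68), in neutrophils Ccl4 (1.01, adjusted p = 0.125), Cxcl1 (1.91) and Socs1 (1.19), and in monocytes Socs1 (1.25, adjusted p = 0.318), Irf1 (0.68) and Tnf (0.78), by edgeR. In cDC1 they included the adhesion receptor Cd44 (0.43, adjusted p = 0.666), in cDC2 Ccl4 (-0.60, adjusted p = 0.212) and Cd44 (0.45), and in mDC Cx3cr1 (-1.08, adjusted p = 0.773) and Socs1 (0.95), by edgeR.

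Genes with the most similar pattern were sought by Pearson correlation of log2(CPM + 1) over the 18 classes, among 10165 genes. For Cxcl9 they were Atox1 (r = 0.90), Sh3bgrl (0.88) and Slamf8 (0.87), and for Cxcl10 Bbc3 (0.83), Dna2 (0.80) and Rbpj (0.76). For Cxcl16 they were Shtn1 (0.92), Cd86 (0.90) and H2-Eb1 (0.89), and for Ccl5 AW112010 (0.89), Pdcd1 (0.89) and Serpina3g (0.88). For Cxcr3 they were Ddb2 (0.94), A930024E05Rik (0.91) and Cd82 (0.90), and for Cxcr6 Dcaf15 (0.97), Xlr4c (0.96) and Cd3d (0.96), a part of the T cell receptor complex. Among the members, Cxcl9 was most like Cxcl16 (0.80) and Cxcr6 was like Cxcr3 (0.77) and Ccl5 (0.70). These are descriptions over classes that share libraries, and small classes weigh as much as large ones.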

How the data were processed

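Values are raw UMI counts for each gene in each barcode, as deposited. They come from cellranger 6.0.0, per the file headers. Per the labels' protocols, the libraries used the 10x 3' v2 kit, and barcodes without cells were removed. The submitters' processing notes name Seurat, GRCm38 and mm10 without a role. Per the series design, 10000 cells were encapsulated, and the matrices hold 10262 to 21854 barcodes.

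A barcode was kept with 500 UMIs, 250 genes and no more than 10% of UMIs from mitochondrial genes, and the 8% of each library with the highest doublet scores (an implementation of the Scrublet method) were removed. Cells were classed by summed UMIs of marker lists, whose minimums were set after seeing the marker distributions; other classes could hold at most 50 macrophage-list UMIs per 10000 (neutrophils 100). Mki67 was left out of the gates. Cells of no gate made up 7.55% to 14.1% and cells of conflicting gates 0.595% to 3.07%. CPM is a gene's UMIs per 1000000 UMIs of the class. Classes differed in depth within libraries, and free RNA can add UMIs to any cell.

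UMIs were summed per library and class (at least 20 cells, 2 libraries per group), and JAG2KO was compared with Scramble across all genes with edgeR 4.0.16 and its quasi-likelihood test (R 4.3.3; TMM, filterByExpr, Benjamini-Hochberg, threshold 0.05), after a check on simulated data. SE is the fold change divided by the root of F. Shares and levels were compared by exact tests (scipy 1.17.1). The members and lists were chosen with earlier results of these data known. The rule for named genes took the 6 members in every class, called partners (the 3 with the smallest p in a class without one), and the 3 most similar genes per member. Some partners are not reported here. Alternatives were DESeq2 1.42.0, no filter, thinned sums or cells, stricter depth, mitochondrial and gate settings, doublets kept, all barcodes, a replicate block, and leaving out each library in turn; a group left with 1 library was assumed to vary like the other.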

Additional observations from a re-analysis of the deposited data

Results flagged for a closer look

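Cells that passed no gate were used in no comparison of a class, although they are part of all kept cells, and in these cells 3 members were higher in both JAG2KO libraries than in all Scramble libraries. Cxcl9 was at 134 CPM in the lower JAG2KO library and 60.3 CPM in the highest Scramble library (Scramble range from 33.8 CPM, JAG2KO up to 174 CPM). Cxcl16 was at 191 CPM in the lower JAG2KO library and 169 CPM in the highest Scramble library (Scramble from 137 CPM, JAG2KO up to 199 CPM). Cxcr6 was at 8.06 CPM in the lower JAG2KO library and 4.39 CPM in the highest Scramble library (Scramble from 4.34 CPM, JAG2KO up to 8.29 CPM). The other 3 members overlapped between groups in these cells. No test was made of these differences, and the share of all genes that separate in this way in these cells is not given here.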

How the results depend on the processing

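Of 53 results of a member in a class or over all kept cells, 9 passed and 44 did not. None of the 9 changed sign under the alternatives run, 26 of the 44 did under at least 1, and 13 of the 44 passed under at least 1. Within classes 6 results passed as reported, 14 with no filter on low counts, 3 with cells thinned to 1000 UMIs and 1 to 14 when each library was left out in turn (1 without Scramble 2, 14 without JAG2KO 1). Ccl5 in cDC1 turned from 0.99 to -3.17 (adjusted p = 0.022, edgeR) without JAG2KO 1, with a range of -3.17 to 1.79 over the libraries left out. The order of Cxcr3 in CD4 T over CD8 T cells, a ratio of 1.20, turned to 0.803 with cells thinned to 1000 UMIs; the cause was not tested. The replicate block gave 9 such results within classes and 4 over all kept cells, where 3 passed as reported; it ended the calls of Ccl5 in all T cells (1.13, adjusted p = 0.352) and Cxcl16 in fibroblasts (1.66, adjusted p = 0.0957) and made 6 others pass, by edgeR: Cxcl9 over all kept cells (1.75, adjusted p = 0.0118), Cxcr6 in macrophages (2.80, adjusted p = 0.0437), Ccl5 in monocytes (1.86, adjusted p = 2.05e-06) and Cxcl10, downward, in cDC2 (-0.95, adjusted p = 0.0107), Treg (-1.18, adjusted p = 0.00776) and all T cells (-1.08, adjusted p = 0.0241). The libraries share only 2 numbers, with correlations of their deviations of 0.18 and 0.06. Genes called over all kept cells numbered 1092, against 1649 with DESeq2, 1727 with no filter, 629 with thinned cells and 340 to 863 with a library left out. Over all alternatives, the block and left-out libraries included, the genes called ranged from 0 to 891 in macrophages (74 as reported, 176 with the block), 11 to 127 in monocytes (29), 1 to 90 in neutrophils (19), 0 to 186 in cDC1 (12), 4 to 137 in cDC2 (36), 2 to 32 in mDC (3), 1 to 52 in Treg (2), 5 to 122 in all T cells (23), 0 to 21 in NK cells (1), 12 to 688 in fibroblasts (304) and 58 to 446 in tumour-gated cells (155). Thinning moved 125 of 156 shares of cells with a UMI. Class orders of Cxcl9, Cxcl10 and Cxcr6 with thinned cells gave no value because too few cells were left. Depth per cell of JAG2KO 2 was low in macrophages (a median of 2039.5 UMIs, against 9307 to 9896 in the others) but not in cDC1 (8076), and the number of cells limits the levels of small classes.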
